A study of Homo sapiens with 9 samples.

Results

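10 genes of ferroptosis were followed through 9 RNA sequencing libraries of PANC-1, a cultured line derived from a human pancreatic ductal carcinoma. They were taken by name from a deposited count table of 58735 genes, and all 10 were found: ACSL4, LPCAT3, GPX4, GCLM, AIFM2, TFRC, FTH1, FTL, NCOA4 and HMOX1. The titles place the libraries in 3 groups of 3, namely ACSS2-KO-3 and ACSS2-KO-2, both titled as knockouts of ACSS2, and NC. The treatment labels differ from these titles: they name a different gene in each knockout library, from ACSS2-KO to ACSS7-KO, and the titles were used. ACSS2 makes acetyl-CoA from acetate in the cytosol and nucleus. What the numbers 2 and 3 of the knockout titles mark, whether either is a single clone, and what NC stands for are points the labels leave unstated. The labels give no agent, medium or time beyond this.

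Ferroptosis is a form of cell death in which iron drives the peroxidation of polyunsaturated fatty acids in membrane phospholipids. ACSL4 and LPCAT3 place such fatty acids into phospholipids. GPX4 reduces the resulting lipid hydroperoxides with glutathione, and AIFM2 (also called FSP1) protects membranes separately from GPX4 by keeping coenzyme Q reduced. TFRC takes up transferrin-bound iron, ferritin built from FTH1 and FTL stores it, NCOA4 hands ferritin to the lysosome, and HMOX1 frees iron from haem.

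Library totals were 16144829 to 17457190 counts for ACSS2-KO-3, 14756572 to 16813763 for ACSS2-KO-2 and 14906798 to 16326713 for NC. Genes with at least 1 count numbered 22311 to 23183 in the ACSS2-KO-3 libraries, 24572 to 25185 for ACSS2-KO-2 and 24476 to 24496 for NC, so ACSS2-KO-3 stood apart at totals as high, and the part of this in the results was not tested. The members had between 228 and 30836 counts in every library, so all 10 were tested. ACSS2 itself fell in both knockouts, to 8.09 ± 0.779 CPM (counts scaled by TMM to a common library size, per 1e6) in ACSS2-KO-3 and 14.1 ± 1.45 CPM in ACSS2-KO-2, against 30.7 ± 2.53 CPM in NC (SD, n = 3 each). The 7 epithelial and carcinoma markers summed to 6886.9 to 7652.2 CPM in ACSS2-KO-3, 5496.4 to 6145.9 CPM in ACSS2-KO-2 and 6066 to 6339.9 CPM in NC. Of these the keratin KRT8 averaged 3773.8, 2893.0 and 2937.6 CPM in ACSS2-KO-3, ACSS2-KO-2 and NC, and the adhesion molecule EPCAM 5.60, 8.46 and 9.33 CPM. PNLIP of acinar cells and INS and GCG of islets were at 0 in all libraries. Summed over 5 haematopoietic markers the level stayed at or under 0.286 CPM in any library. A gene counted as changed at an adjusted p under 0.05 in edgeR's quasi-likelihood test, with Benjamini-Hochberg adjustment over 15811 genes. "Rose" and "fell" are used of such genes. No label states separate cultures within a group, so p-values here reflect spread among these libraries only, and that spread may be technical.

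Transcripts of FTH1, FTL and TFRC carry iron-responsive elements, hairpins with the loop CAGTGN that iron regulatory proteins bind when iron is scarce. Binding in a 5′ UTR blocks translation of ferritin, and binding in the 3′ UTR of TFRC protects its RNA from decay, so of these 3 genes TFRC is the one whose RNA level the elements are known to set. The longest coding transcript of each gene in GENCODE 29 (GRCh38), or the longest transcript where none is coding, was searched on the transcript strand. The pattern was an unpaired C, 5 paired bases, CAGTGN and the 5 bases pairing back, G with T pairs allowed. The pattern occurred in 222 of 15804 tested genes (1.4%), and 2 genes (0.0127%) held 3 or more matches. Among the members it was found in FTH1 and FTL, once each in the 5′ UTR in exon 1 of 4, and 4 times in the 3′ UTR of TFRC in exon 19 of 19. Hairpins with another loop or an unpaired stem base would be missed, so the counts are of this pattern only. The 6 elements are shown as 29 bases, 5′ to 3′, with the loop in capitals. They are shown because the 3 iron genes that carry them rose by different amounts in ACSS2-KO-3 in the counts as deposited. FTH1 is at chr11:61967574-61967602 (minus strand) and FTL at chr19:48965335-48965363 (plus strand). The TFRC elements, in transcript order, are at chr3:196050979-196051007, chr3:196050575-196050603, chr3:196050510-196050538 and chr3:196050463-196050491 (minus strand).
FTH1: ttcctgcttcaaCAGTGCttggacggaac
FTL: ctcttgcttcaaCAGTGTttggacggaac
TFRC element 1: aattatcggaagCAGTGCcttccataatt
TFRC element 2: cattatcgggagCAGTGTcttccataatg
TFRC element 3: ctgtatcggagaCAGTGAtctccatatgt
TFRC element 4: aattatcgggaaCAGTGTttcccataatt

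The antioxidant response element is the site through which the transcription factor NRF2, the product of NFE2L2, acts on genes of glutathione and iron. Its core TGACNNNGC was searched on both strands in RefSeq promoter windows (GRCh38.p14) from 250 bases before to 50 bases after the start site. 8 of the 10 members had an entry, and FTH1 and HMOX1, which had none, were not searched. The core was present in 13.3% of 35116 windows and in those of GCLM, AIFM2 and 1 of the 2 windows of NCOA4. In GCLM the match lies 34 bases before the start site (chr1:93909450-93909470, minus strand) and in AIFM2 22 bases before it (chr10:70132833-70132853, minus strand). Both lie on the strand opposite to the gene and are shown with the matched letters in capitals. They are shown because these 2 genes of antioxidant defence had opposite signs of change in ACSS2-KO-3 in the counts as deposited. In a fit relative to genes of like GC content and length, described below, both had positive values. A match of letters is a description and not a proven site.
GCLM: atttctGCTTAGTCAttgtct
AIFM2: acgagtGCTGAGTCAcgcccc

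In ACSS2-KO-3 all 10 genes differed from NC. 8 rose and 2 fell, where 63.3% of all tested genes were called, 31.2% higher and 32.1% lower. The share of calls over the whole table is therefore high, and a call alone sets no member apart. The median log2 fold change of the members was 0.325, and that of all tested genes was -0.0365. For all 10 the 3 ACSS2-KO-3 libraries lay wholly on one side of the 3 NC libraries, as they did for 66.9% of tested genes.

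**Figure D1:**
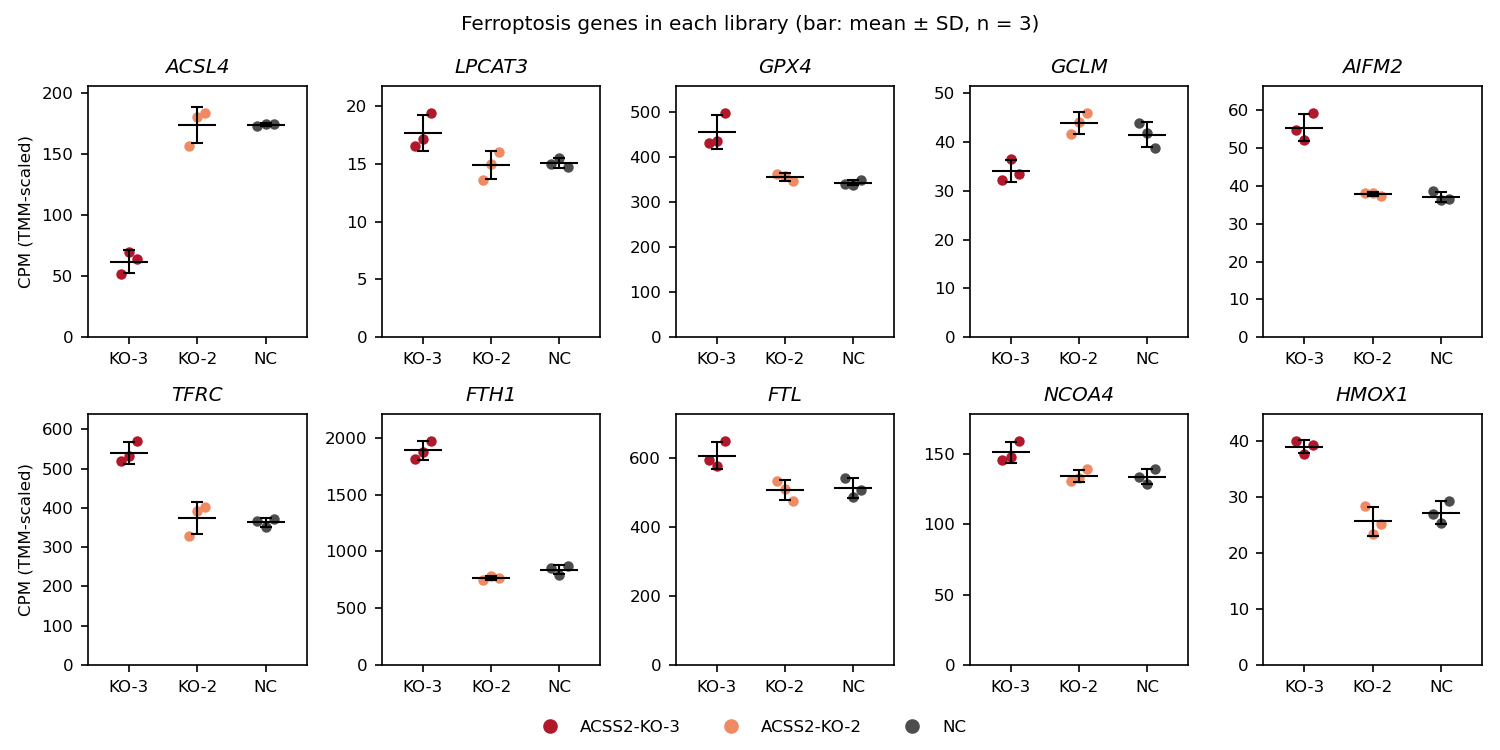
Level of each of the 10 genes in CPM, on an axis from 0, in the ACSS2-KO-3, ACSS2-KO-2 and NC libraries (KO-3 and KO-2 on the axis). Points are libraries and bars the mean ± SD of 3; the ACSS2-KO-3 points stand apart in every panel, while ACSS2-KO-2 and NC overlap in all but FTH1.

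A property of the transcripts moved with these differences. Across 12903 protein-coding genes the log2 fold change of ACSS2-KO-3 against NC followed the GC content of the longest coding transcript, with a rank correlation across genes of 0.53, against -0.02 for ACSS2-KO-2 against NC. Genes are not independent replicates, and all share the same libraries. Genes of 30 to 40% GC had a median log2 fold change of -0.87 and 83.5% of them were lower, whereas genes of 55 to 60% GC had a median of 0.29 and 56.1% were higher. Each member is therefore given below beside the median of its GC band. It is also given from a fit with offsets per library for GC content and transcript length, in which the rank correlation was 0.01. A value with the offsets is relative to genes of like GC content and length, so its sign can differ from that of the CPM levels. Whether the trend with GC content is technical or biological was not tested. With the offsets 57.7% of tested genes were called in ACSS2-KO-3, 25.2% higher and 32.5% lower, and 8 of the 10 members, 7 higher and 1 lower.

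**Figure D2:**
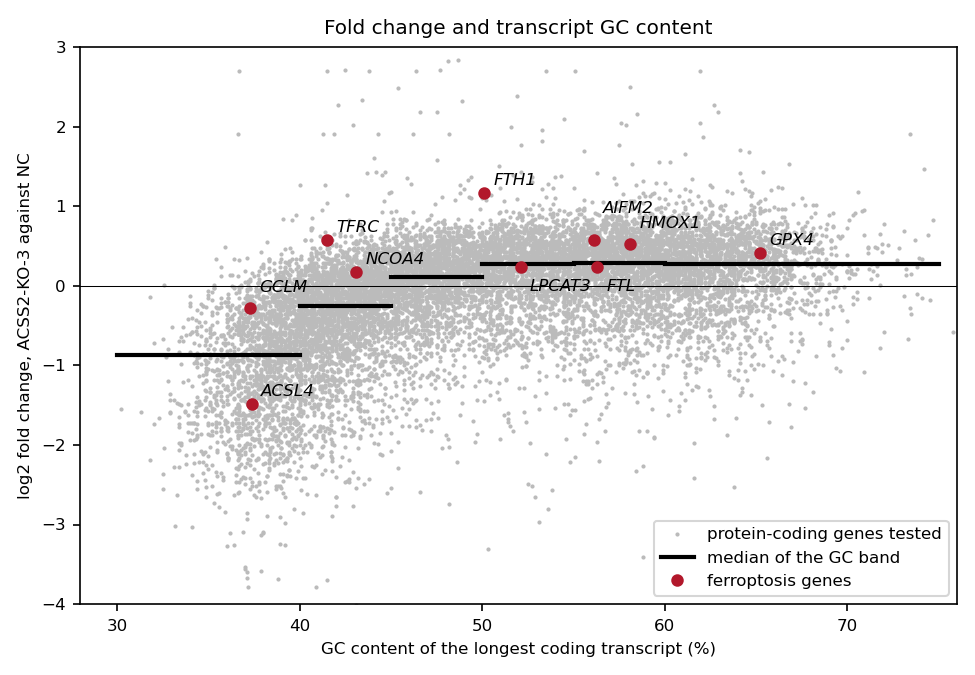
Log2 fold change of ACSS2-KO-3 against NC for each protein-coding gene tested (grey; 33 lie outside the axes) by the GC content of its longest coding transcript in percent. Black bars are the medians of 6 GC bands and red points the 10 ferroptosis genes; FTH1 (1.17) and TFRC (0.57) stand above the medians of their bands (0.27 and -0.25), and ACSL4 (-1.49) below its own (-0.87).

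ACSL4 (ENSG00000068366, chromosome X, 109624244 to 109733403), which activates arachidonic and adrenic acid for phospholipid synthesis, had the largest fall. It measured 51.8, 69.8 and 64.2 CPM in ACSS2-KO-3, 157, 181 and 184 CPM in ACSS2-KO-2, against 173, 175 and 175 CPM in NC. The ACSS2-KO-3 libraries were all far below every other library, while ACSS2-KO-2 and NC overlapped. ACSL4 stood at 35.6% of NC in ACSS2-KO-3 (log2 fold change -1.49, SE 0.0768, edgeR adjusted p 3.2e-15). At 37.4% GC it belonged to the band with a median of -0.87, and with the offsets the log2 fold change was -0.73 (95% interval -0.85 to -0.61, edgeR adjusted p 3.98e-12). In bulk RNA a lower level in every cell and a share of cells without the transcript cannot be told apart.

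LPCAT3 (ENSG00000111684, chromosome 12, 6976186 to 7018510), the acyltransferase that esterifies polyunsaturated acyl-CoA into lysophospholipids, was the member with the lowest level. It measured 16.5, 17.1 and 19.4 CPM in ACSS2-KO-3 and 15.0, 15.5 and 14.7 CPM in NC. The groups did not overlap, but the log2 fold change of 0.23 passed by a small margin (edgeR adjusted p 0.0474). The call was lost without any of NC replicate 1 (0.23, adjusted p 0.0819), NC replicate 2 (0.26, 0.0542), NC replicate 3 (0.22, 0.0941) or ACSS2-KO-3 replicate 3 (0.16, 0.199). LPCAT3 also failed with DESeq2 (adjusted p 0.0639), with no low-count filter (0.0774) and in a fit of the 2 groups alone (0.0569), and with the offsets it was -0.04. It overlaps EMG1 on the opposite strand over 21243 bases, and EMG1 had 2491 counts in ACSS2-KO-3 and 1822 in NC, against 816 and 726 for LPCAT3. How strand entered the counting is not given in the sources used, so reads of the 2 genes may not be separable.

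GPX4 (ENSG00000167468, chromosome 19, 1103926 to 1106791), the selenoenzyme that reduces phospholipid hydroperoxides, rose in ACSS2-KO-3. It measured 432, 436 and 498 CPM in ACSS2-KO-3, against 341, 338 and 349.5 CPM in NC. All 3 ACSS2-KO-3 libraries were above NC, and replicate 3 was above the other two. The log2 fold change was 0.41 (SE 0.0536, edgeR adjusted p 1.85e-07), which is close to the median of 0.27 for genes of 60 to 75% GC. With the offsets it was 0.15 (95% interval 0.05 to 0.25, edgeR adjusted p 0.00865).

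GCLM (ENSG00000023909, chromosome 1, 93885205 to 93909456), the modifier subunit of the enzyme that limits glutathione synthesis, changed sign with the offsets. Its level was 32.2, 36.6 and 33.5 CPM in ACSS2-KO-3, against 44.0, 41.8 and 38.8 CPM in NC, without overlap. The log2 fold change was -0.28 as deposited (SE 0.0742, edgeR adjusted p 0.00165) and 0.49 with the offsets (95% interval 0.36 to 0.62, edgeR adjusted p 9.66e-08). At 37.3% GC, GCLM shares its band with ACSL4, and the values of the pair as deposited lie on opposite sides of the band's median of -0.87. Its direction differed between the fits, whereas that of ACSL4 was the same in both. In GCLM and AIFM2 the change stood beside the promoter matches printed above, with opposite signs in the counts as deposited and the same sign with the offsets.

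AIFM2 (ENSG00000042286, chromosome 10, 70098223 to 70132934), the coenzyme Q reductase, measured 54.8, 52.1 and 59.3 CPM in ACSS2-KO-3 and 38.6, 36.2 and 36.6 CPM in NC. Every ACSS2-KO-3 library was above every NC library. It rose by a log2 fold change of 0.57 (SE 0.0679, edgeR adjusted p 3.19e-08), and by 0.25 with the offsets (edgeR adjusted p 0.00118). The histone gene H2AFY2 overlaps it on the opposite strand but had 171 counts in ACSS2-KO-3 and 119 in NC, against 2560 and 1793 for AIFM2.

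TFRC (ENSG00000072274, chromosome 3, 196027183 to 196082189), the transferrin receptor, rose, while in its GC band more genes fell than rose. It measured 518, 531 and 571 CPM in ACSS2-KO-3 and 367, 351 and 371 CPM in NC. The lowest ACSS2-KO-3 library was well above the highest NC library. The log2 fold change was 0.57 (SE 0.0609, edgeR adjusted p 4.66e-09), beside a median of -0.25 in the band of 40 to 45% GC, where 16.2% of genes were higher and 49.8% lower. With the offsets TFRC reached 0.91 (95% interval 0.81 to 1.02, edgeR adjusted p 9.58e-16).

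FTH1 (ENSG00000167996, chromosome 11, 61959718 to 61967660), the ferritin heavy chain whose ferroxidase site oxidises iron for storage, had the largest rise. Its level was 1819.4, 1874.4 and 1976.7 CPM in ACSS2-KO-3, 752, 781 and 768 CPM in ACSS2-KO-2, against 857, 793 and 873 CPM in NC. Every ACSS2-KO-3 library was far above every other library, and ACSS2-KO-2 lay below NC without overlap. It stood 2.25-fold above NC (log2 fold change 1.17, SE 0.0493, edgeR adjusted p 6.01e-17), and the value was 1.02 with the offsets, beside a band median of 0.27. The table lists 25 FTH1 pseudogenes. Their counts together equalled 1.69% of the FTH1 counts in ACSS2-KO-3, 1.84% in ACSS2-KO-2 and 1.72% in NC, a small and even share. How reads that match both FTH1 and a copy were counted is not given in the sources used. Summing them with FTH1 left the log2 fold change at 1.17.

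FTL (ENSG00000087086, chromosome 19, 48965301 to 48966878), the light chain that helps form the ferritin iron core, moved far less than its partner. It measured 593, 575 and 649 CPM in ACSS2-KO-3, against 542, 485 and 507 CPM in NC, which did not overlap. The log2 fold change was 0.24 (SE 0.0557, edgeR adjusted p 0.000402), close to its band median of 0.29, and 0.06 with the offsets, where FTL did not pass (edgeR adjusted p 0.302). The ratio of FTH1 to FTL counts was 3.07, 3.26 and 3.04 in the ACSS2-KO-3 libraries, 1.41, 1.53 and 1.62 in ACSS2-KO-2, against 1.58, 1.63 and 1.72 in NC. This ratio, which does not depend on library scaling, was highest in the 3 ACSS2-KO-3 libraries, and those of ACSS2-KO-2 and NC overlapped.

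NCOA4 (ENSG00000266412, chromosome 10, 46005088 to 46030714), the receptor that delivers ferritin to lysosomes, measured 146, 148 and 159.5 CPM in ACSS2-KO-3 and 134, 129 and 139 CPM in NC. The groups were separate but close. Its log2 fold change of 0.17 (SE 0.0545, edgeR adjusted p 0.00712) stood beside a band median of -0.25, and it was 0.32 with the offsets (edgeR adjusted p 1.52e-06). HMOX1 (ENSG00000100292, chromosome 22, 35380361 to 35394214), the inducible haem oxygenase, measured 40, 37.6 and 39.2 CPM in ACSS2-KO-3 and 26.9, 25.3 and 29.3 CPM in NC. All of its ACSS2-KO-3 libraries were higher, with a log2 fold change of 0.52 (SE 0.0805, edgeR adjusted p 2.91e-06), beside a band median of 0.29, and 0.22 with the offsets (edgeR adjusted p 0.0106).

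In ACSS2-KO-2 no member passed the test, although ACSS2 RNA was reduced there too. Called by edgeR were 0 of 10 members, beside 6.65% of all tested genes, 3.81% higher and 2.84% lower, and 0 of 10 by DESeq2 and by limma-voom. With the offsets it was again 0 of 10, beside 10.4% of tested genes, 5.12% higher and 5.24% lower. Log2 fold changes against NC ran from -0.13 to 0.08, and the 95% intervals of the 10 genes spanned -0.25 to 0.23. 1 member, FTH1, had an unadjusted edgeR p under 0.05 (log2 fold change -0.13, adjusted p 0.113), and its 3 ACSS2-KO-2 libraries all lay below NC, as 12.1% of tested genes did. ACSL4 measured 174 ± 15.0 CPM in ACSS2-KO-2 and 174 ± 1.24 CPM in NC, with a 95% interval of -0.15 to 0.15 for the log2 fold change. GPX4 measured 355 ± 8.40 CPM in ACSS2-KO-2 and 343 ± 6.05 CPM in NC (log2 fold change 0.05, 95% interval -0.06 to 0.16). TFRC measured 328, 393 and 402 CPM in ACSS2-KO-2, where replicate 1 was below all NC libraries and the other two above them. Of the defence genes, GCLM measured 41.6, 44.1 and 46.0 CPM and AIFM2 38.2, 38.1 and 37.2 CPM in the ACSS2-KO-2 libraries. Both overlapped the NC values given above. Among the iron genes FTL measured 532, 509.8 and 475 CPM, NCOA4 131, 133 and 139 CPM and HMOX1 28.4, 23.3 and 25.2 CPM in ACSS2-KO-2, and each overlapped NC, as did LPCAT3 with 13.6, 15.0 and 16.0 CPM. The ratio of GPX4 to ACSL4 counts, the main peroxide reductase over the enzyme that supplies its substrates, was 8.34, 6.24 and 7.76 for ACSS2-KO-3 libraries, 2.30, 1.98 and 1.88 for ACSS2-KO-2, against 1.97, 1.93 and 2.00 in NC. It was highest in the ACSS2-KO-3 libraries, and ACSS2-KO-2 and NC overlapped. GPX4 has 65.2% GC and ACSL4 37.4%, in bands with medians of 0.27 and -0.87 in ACSS2-KO-3 against NC. The ratio takes no account of GC content, and the part of GC content in it was not tested. A p that misses the threshold does not show equal levels, but for each of the 10 genes the interval leaves out its own log2 fold change in ACSS2-KO-3 in the counts as deposited.

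**Figure D3:**
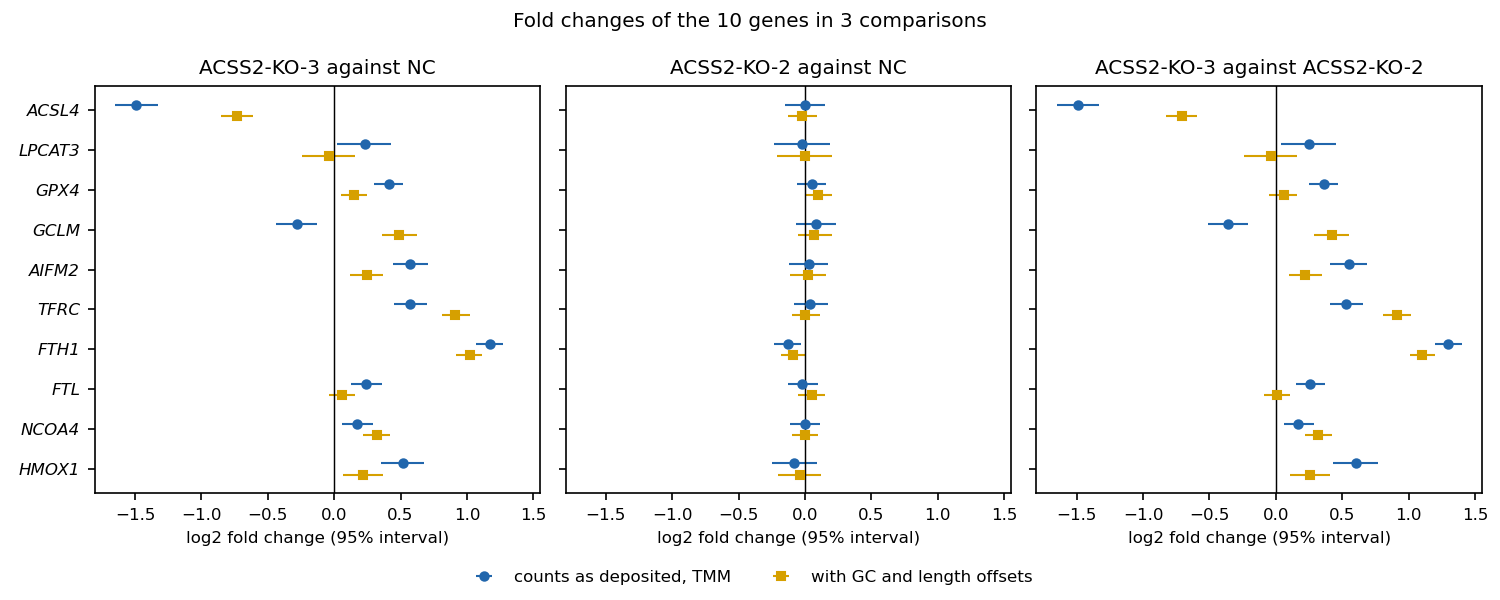
Log2 fold changes with 95% intervals of the 10 genes in the 3 comparisons, from the counts with TMM scaling (blue circles) and with GC and length offsets (yellow squares). In ACSS2-KO-2 against NC all points lie near 0, and in the 2 comparisons of ACSS2-KO-3 the sign of GCLM turns and that of LPCAT3 crosses 0 with the offsets.

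The difference between the knockouts was tested directly. In ACSS2-KO-3 against ACSS2-KO-2, 8 members were higher and 2 lower, beside 61.7% of tested genes called, 31.2% higher and 30.5% lower. With the offsets 54.1% of tested genes were called, 23.5% higher and 30.6% lower, and 7 members. The libraries of the knockouts did not overlap for any of the 10, as for 65.9% of tested genes. By log2 fold change FTH1 stood at 1.30 (edgeR adjusted p 9.56e-18, offsets 1.10) and ACSL4 at -1.49 (3.42e-15, offsets -0.71). TFRC was 0.53 higher (2.13e-08, offsets 0.91), HMOX1 0.60 (3.28e-07, offsets 0.26), AIFM2 0.55 (7.2e-08, offsets 0.22) and NCOA4 0.17 (0.00732, offsets 0.32). GPX4 was 0.36 higher (edgeR adjusted p 1.73e-06) but 0.06 with the offsets (0.352), and FTL 0.26 higher (0.000208) but 0.01 with them (0.914). GCLM had a log2 fold change of -0.36 (edgeR adjusted p 0.000115) and 0.42 with the offsets (1.5e-06). LPCAT3 was 0.25 higher (edgeR adjusted p 0.0325), a call lost without ACSS2-KO-2 replicate 1 (0.19, 0.149) or ACSS2-KO-3 replicate 3 (0.18, 0.149), and -0.04 with the offsets. This comparison and that with NC share the ACSS2-KO-3 libraries and the same model, so their values are not independent of each other.

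Levels between genes were set side by side per kilobase of the deposited gene length. In NC the order was FTL (582 CPM per kilobase), FTH1 (414), GPX4 (169.8), TFRC (46.0), NCOA4 (32.9), ACSL4 (27.2), HMOX1 (11.3), GCLM (7.66), AIFM2 (7.23) and LPCAT3 (3.19). The libraries of GCLM and AIFM2 overlapped, and other neighbours in this order were separate. In ACSS2-KO-3, FTH1 led with 931 CPM per kilobase, ahead of FTL with 689.8, and ACSL4 had moved below HMOX1 and AIFM2 to 9.65. Libraries of ACSL4 and AIFM2 overlapped there. The order of FTH1 and FTL in NC depends on the length used: per kilobase of the longest coding transcript FTH1 stood at 684 and FTL at 582. By that measure AIFM2 (11.4) also stood above GCLM (8.55) in NC, and LPCAT3 (7.79) above GCLM (7.02) in ACSS2-KO-3.

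Of 104 other genes of the pathway in 7 lists, 93 were tested. In ACSS2-KO-3 against NC 38 of them rose and 30 fell, with a median log2 fold change of 0.06, beside -0.0365 and 63.3% called over all tested genes. With the offsets 30 rose and 33 fell, beside 25.2% higher and 32.5% lower over all tested genes. Called the same way in both fits were 43 genes, and 4 were called in opposite directions. In ACSS2-KO-2 against NC 3 rose and 8 fell, beside 6.65% over all tested genes. That count was 5 without NC replicate 2 or without ACSS2-KO-2 replicate 2, and 6 without ACSS2-KO-2 replicate 3.

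**Figure D4:**
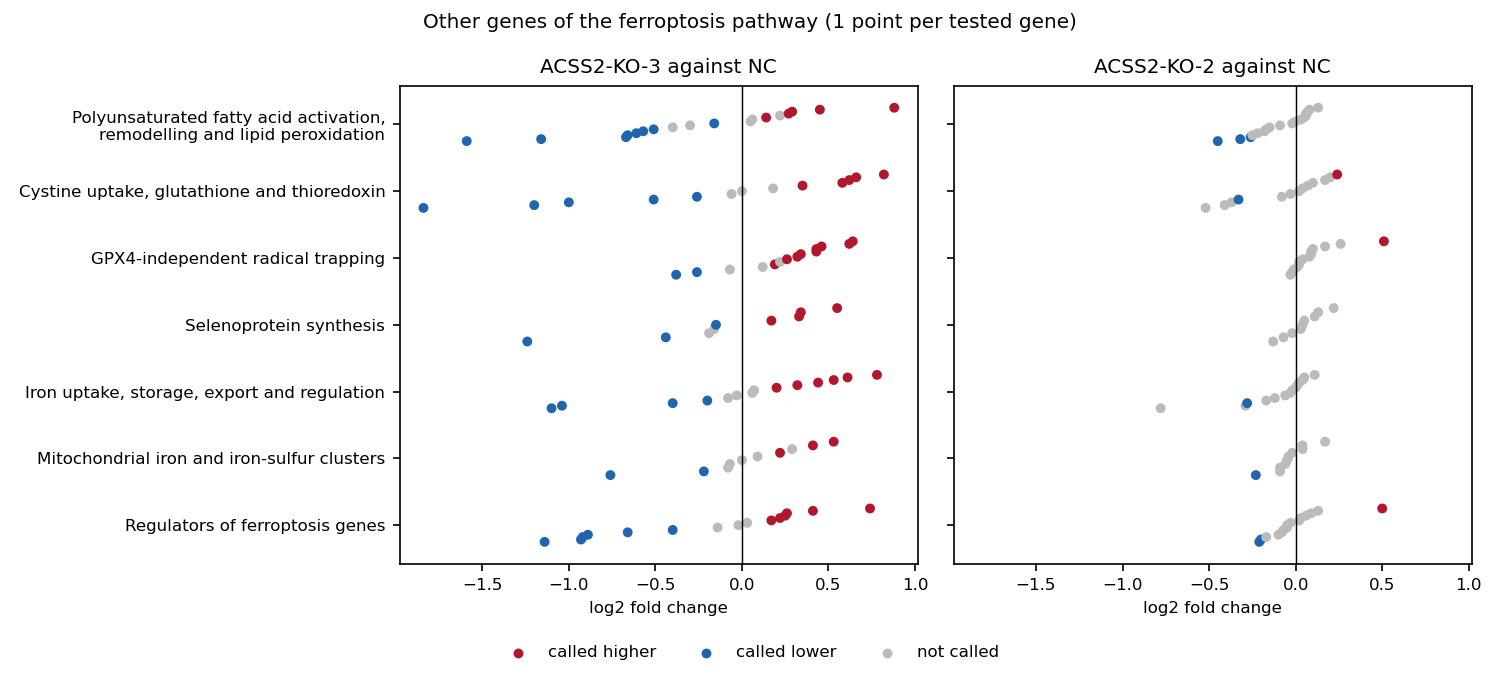
Log2 fold change of each tested gene of 7 lists in ACSS2-KO-3 against NC (left) and ACSS2-KO-2 against NC (right). Each point is a gene, red if called higher, blue if called lower and grey if not called; the left panel spreads from SLC7A11 at -1.84 to values above 0.5, and the right panel holds 11 coloured points.

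Cystine import showed opposite changes of its subunits. SLC7A11, the transport subunit of the cystine-glutamate exchanger, measured 6.86, 9.97 and 8.84 CPM in ACSS2-KO-3, 29.2, 33.3 and 36.4 CPM in ACSS2-KO-2, against 32.6, 31.6 and 28.1 CPM in NC. All ACSS2-KO-3 libraries were far below the others (log2 fold change against NC -1.84, edgeR adjusted p 1.11e-13, offsets -0.85, 35.4% GC). SLC3A2, the heavy chain that anchors SLC7A11 and other transporters, rose to 396 ± 13.4 CPM in ACSS2-KO-3, against 224 ± 8.80 CPM in NC (0.82, edgeR adjusted p 1.84e-13, offsets 0.50). Of 13 tested genes of cystine uptake, glutathione and thioredoxin, 5 rose and 5 fell, and with the offsets 5 rose and 4 fell. Over all tested genes 31.2% were higher and 32.1% lower, and 25.2% and 32.5% with the offsets. Glutathione reductase GSR rose by 0.66 (0.43 with the offsets) and thioredoxin reductase TXNRD1 by 0.62 (0.61), while CTH, which makes cysteine from cystathionine, fell by 1.00 on the log2 scale (-0.84). GCLC, the catalytic partner of GCLM, measured 38.3 CPM in ACSS2-KO-3 and 38.2 CPM in NC and did not pass (edgeR adjusted p 0.964). Between the knockouts, ACSS2-KO-3 over ACSS2-KO-2, the log2 fold change was -1.94 for SLC7A11 and -0.59 for CTH and 0.85 for SLC3A2, each past the edgeR test in both fits.

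Of 18 tested genes of fatty acid activation, remodelling and lipid peroxidation, 5 rose and 8 fell in ACSS2-KO-3, and with the offsets 3 rose and 9 fell. Shares over all tested genes were 31.2% higher and 32.1% lower, and 25.2% and 32.5% with the offsets. In this list 7 genes were called the same way in both fits and 2 in opposite directions, FADS1 (0.14, offsets -0.12), a desaturase, and AGPS (-0.51, offsets 0.31), which makes ether lipids. These 2 are named after their values were seen. ACSL3, which activates monounsaturated fatty acids, fell by 1.16 on the log2 scale (-0.47 with the offsets), and FAR1, which makes the fatty alcohols of ether lipids, fell by 1.59 (-0.26). POR, a reductase that can start lipid peroxidation, rose by 0.45 and CYB5R1 by 0.29, but with the offsets they stood at 0.08 and 0.07 and did not pass. The CYB5R1 call was also lost without NC replicate 1 (0.24, edgeR adjusted p 0.0517) or ACSS2-KO-3 replicate 1 (0.24, 0.0529). Against ACSS2-KO-2, ACSL3 (-1.22) and FAR1 (-1.67) were lower and POR (0.42) and ACSL1 (0.44), a broad acyl-CoA synthetase, higher in ACSS2-KO-3, POR at 0.03 with the offsets. ACSL3 and FAR1 belong to the band of 30 to 40% GC, with a median of -0.88 in that comparison. In ACSS2-KO-2 against NC 3 of these 18 genes fell, beside 2.84% lower over all tested genes. FADS2, a desaturase of polyunsaturated fatty acids, was among them (345 ± 11.7 CPM in ACSS2-KO-2 and 469.7 ± 13.3 CPM in NC, log2 fold change -0.45, edgeR adjusted p 3.56e-07). SCD, which makes oleate, was another (-0.32). Both also lay below NC in ACSS2-KO-3 without overlap, with a log2 fold change of -0.16 for FADS2 and -0.57 for SCD. FADS2 averaged 420.4 CPM there, and SCD 2803.8 CPM against 4161.3 CPM in NC.

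Of 14 tested genes of radical trapping apart from GPX4, 9 rose and 2 fell in ACSS2-KO-3, and with the offsets 7 rose and 1 fell. The shares over all tested genes were 31.2% higher and 32.1% lower, and 25.2% and 32.5% with the offsets. STARD7, which carries coenzyme Q out of mitochondria, rose by 0.64 (0.39 with the offsets) and PDSS1, which builds the coenzyme Q tail, by 0.62 (0.69). DHODH, a mitochondrial reductase of coenzyme Q, rose by 0.43 and NQO1 by 0.19, but with the offsets they stood at 0.15 and 0.07 and did not pass. NQO1 was also lost without NC replicate 3 (0.14, edgeR adjusted p 0.0614). SC5D of sterol synthesis fell by 0.38 but rose by 0.25 with the offsets. GCH1, which makes tetrahydrobiopterin, was 0.12 above NC in ACSS2-KO-3 (edgeR adjusted p 0.489). In ACSS2-KO-2 it rose by 0.51 (0.0216), a call lost without NC replicate 2 (0.54, 0.0549), NC replicate 3 (0.41, 0.128), ACSS2-KO-2 replicate 2 (0.45, 0.124) or ACSS2-KO-2 replicate 3 (0.53, 0.0552). In ACSS2-KO-3 against ACSS2-KO-2, STARD7 was 0.54 and SPR 0.44 higher, and SC5D (-0.37) and GCH1 (-0.39) were lower. Of these, SPR (0.12) and GCH1 (-0.27) did not pass with the offsets, SC5D stood at 0.21, and GCH1 was lost without ACSS2-KO-2 replicate 2 (-0.31, 0.0881) or ACSS2-KO-3 replicate 1 (-0.32, 0.0741).

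GPX4 protein contains selenocysteine, and of 9 genes of selenoprotein synthesis 4 rose and 3 fell in ACSS2-KO-3, beside 31.2% higher and 32.1% lower over all tested genes. With the offsets 1 rose and 5 fell, and against ACSS2-KO-2 the offsets gave 0 higher and 5 lower, where the counts as deposited gave 4 and 3. The offset shares over all tested genes were 25.2% higher and 32.5% lower against NC, and 23.5% and 30.6% against ACSS2-KO-2. SEPSECS, which makes selenocysteine on its transfer RNA, fell by 1.24 on the log2 scale (-0.49 with the offsets) and SECISBP2, which reads the selenocysteine signal, by 0.44 (-0.53). The elongation factor EEFSEC rose by 0.55 but stood at 0.19 with the offsets and did not pass, and SEPHS1 rose by 0.34 (0.16). Set against ACSS2-KO-2, values were -1.17 for SEPSECS, -0.66 for SECISBP2, 0.44 for EEFSEC and 0.29 for SEPHS1. With the offsets EEFSEC (0.05) and SEPHS1 (0.12) did not pass in that comparison.

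Of 14 tested genes of iron uptake, storage, export and regulation, 6 rose and 4 fell in ACSS2-KO-3, and with the offsets 6 rose and 6 fell. Among all tested genes 31.2% were higher and 32.1% lower, and 25.2% and 32.5% with the offsets. IREB2, the iron regulatory protein IRP2, measured 44.1, 54.2 and 46.8 CPM in ACSS2-KO-3, against 100.2, 93.3 and 105 CPM in NC, without overlap (log2 fold change -1.04, edgeR adjusted p 1.71e-12, offsets -0.36). ACO1, the other iron regulatory protein, rose by 0.32 (0.26 with the offsets). SLC39A14, a transporter of zinc and unbound iron, rose by 0.78 (0.59) and STEAP3, the endosomal ferrireductase, by 0.61 (0.29). SLC11A2, which carries iron out of endosomes, stood at 0.07 and did not pass (edgeR adjusted p 0.325), whereas with the offsets it did (0.24, 0.000774). HFE, which binds TFRC, fell by 0.40, beside a band median of -0.25 at its 42.9% GC. Against ACSS2-KO-2, IREB2 was lower (-1.01) and SLC39A14 (0.79) and the iron chaperone PCBP1 (0.51) higher in ACSS2-KO-3. At 38.3%, 47.4% and 55.2% GC, these 3 genes belonged to bands with medians of -0.88, 0.1 and 0.3 in that comparison. The iron exporter SLC40A1 had 0 counts in every ACSS2-KO-3 and NC library and 4, 1 and 6 counts in ACSS2-KO-2, too few to be tested. A count of 0 allows up to 3 counts in a library, and this covers counting error only.

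In ACSS2-KO-2 against NC, HFE fell by 0.28 (edgeR adjusted p 0.0228), a call lost with DESeq2 (0.0633) and without NC replicate 2 (-0.25, 0.12), NC replicate 3 (-0.29, 0.0522), ACSS2-KO-2 replicate 2 (-0.24, 0.149) or ACSS2-KO-2 replicate 3 (-0.28, 0.0757). TXNRD1 rose by 0.24 (0.00335). CHAC1, which degrades glutathione, fell by 0.33 (0.00789), lost without NC replicate 2 (-0.29, 0.0654) or ACSS2-KO-2 replicate 2 (-0.29, 0.0813). The mitochondrial iron importer SLC25A37 fell by 0.23 (0.0105), lost without NC replicate 2 (-0.21, 0.0701) or ACSS2-KO-2 replicate 2 (-0.20, 0.112). EPAS1, the hypoxia factor HIF-2 alpha, rose by 0.50 (1.62e-05). WWTR1 fell by 0.20 (edgeR adjusted p 0.0154). Its call was lost without NC replicate 1 (-0.17, 0.073), ACSS2-KO-2 replicate 1 (-0.18, 0.0669) or ACSS2-KO-2 replicate 3 (-0.20, 0.0593). The p-values of this paragraph are edgeR adjusted p unless named otherwise.

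Of 10 genes of mitochondrial iron and iron-sulfur clusters, 3 rose and 2 fell in ACSS2-KO-3, and with the offsets 5 rose and 2 fell. For all tested genes the shares were 31.2% higher and 32.1% lower, and 25.2% and 32.5% with the offsets. SLC25A37 measured 59.3 ± 2.6 CPM in ACSS2-KO-3 and 100.4 ± 1.57 CPM in NC (log2 fold change -0.76, edgeR adjusted p 9.78e-12, offsets -1.01). GLRX5, which passes on iron-sulfur clusters, rose by 0.53 (0.47 with the offsets) and the cysteine desulfurase NFS1 by 0.41 (0.24). CISD2 had -0.22 as deposited (edgeR adjusted p 0.0295) and 0.57 with the offsets, and its call was lost without NC replicate 1 (-0.12, 0.26) or ACSS2-KO-3 replicate 2 (-0.16, 0.136). Against ACSS2-KO-2, SLC25A37 was lower (-0.53) and NFS1 (0.45) and GLRX5 (0.36) higher in ACSS2-KO-3.

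Of 15 regulators, 6 rose and 6 fell in ACSS2-KO-3, beside 31.2% higher and 32.1% lower over all tested genes. With the offsets 3 rose and 6 fell, beside 25.2% and 32.5%. NFE2L2, which encodes NRF2, measured 57.3, 67.3 and 54.0 CPM in ACSS2-KO-3, 112, 105 and 110 CPM in ACSS2-KO-2, against 120.3, 113 and 105 CPM in NC. ACSS2-KO-3 was lowest without overlap (log2 fold change against NC -0.92, edgeR adjusted p 8.29e-12), and the fall was 1.01 with the offsets (-1.01). KEAP1, the adaptor that marks NRF2 for degradation, rose by 0.74 (0.37 with the offsets), and BACH1, a repressor of HMOX1 and ferritin genes, fell by 1.14 on the log2 scale (-0.50). HIF1A, a hypoxia factor, fell by 0.93 but stood at -0.08 with the offsets and did not pass. Against ACSS2-KO-2 the values in the counts as deposited were 0.68 for KEAP1, -1.23 for BACH1 and -1.06 for HIF1A. Each was called in both fits, and the sizes with the offsets are not reported here.

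Genes whose levels over the 9 libraries were most like ACSL4, by Pearson correlation of log2 CPM, were SECISBP2L, KIAA1551 and RICTOR, a subunit of mTORC2, each at 0.999. RICTOR averaged 8.57 CPM in ACSS2-KO-3, 45.2 CPM in ACSS2-KO-2 and 44.8 CPM in NC. Of 9547 genes compared, 1418 exceeded 0.95 with ACSL4, so the pattern is a common one in these libraries. For GPX4 the nearest were H3F3B (0.994), AC008038.1 (0.992) and SNX11 (0.992), and 1277 genes exceeded 0.95. These correlations rest on 3 groups of 3 libraries and describe the group differences.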

How the data were processed

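Polyadenylated RNA of 9 PANC-1 libraries was selected with oligo(dT), copied with a dUTP-marked strand and read from both ends at 150 bases, per the labels' protocols. The authors' deposited table holds whole-number counts per gene, not scaled between libraries. GRCh38, cutadapt 1.9, HISAT2 2.2.1, StringTie 2.1.6, DESeq2 and edgeR are named per the submitters' processing notes. The program behind the counts and its use of strand are not given in the sources used. All 58735 identifiers with their positions matched GENCODE 29. The gene length used per kilobase is another deposited column, in bases. Groups came from the titles, since the treatment labels of the knockouts run from ACSS2-KO to ACSS7-KO.

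Counts were filtered by group (filterByExpr, minimum count 10, minimum total 15), leaving 15811 genes, and scaled with TMM in edgeR 4.0.16 (R 4.3.3). 1 quasi-likelihood model of 9 libraries (6 residual degrees of freedom, common dispersion 0.00291) gave 3 two-sided comparisons. The code was tested on simulated data. Offsets were per-library spline fits (5 degrees of freedom each) of log2 CPM deviations on GC content and length of the longest coding transcript. For a gene without a coding transcript, its longest transcript was used. Alternatives were RLE scaling, no filter, DESeq2 1.42.0, limma-voom 3.58.1, a replicate block, the 2 groups alone, summed pseudogenes and each library left out. Residuals of same-numbered libraries correlated at -0.041 to 0.056 over 9 pairs, with 0 over 0.1, so the numbers were not treated as pairs.

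The members and the pathway lists were chosen with earlier results of these data known. Named were all members, ACSS2, 16 pathway genes in every case, and per list and comparison the 2 largest rises and 2 largest falls among called genes with at least 5 CPM in the higher group. The 3 genes most like ACSL4 and GPX4 had at least 10 CPM. Some genes that this rule names are not reported here.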

Additional observations from a re-analysis of the deposited data

How the results depend on the processing

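In ACSS2-KO-2 against NC, where 1052 genes were called, the GC and length offsets gave 1637 and the replicate block with these offsets 1732, and leaving out 1 library gave 666 (without ACSS2-KO-2 replicate 2) to 979. Calls among the other pathway genes ran from 5 to 11 with a library left out. 0 members were called there under every alternative run. With the replicate block alone 1113 genes were called in ACSS2-KO-2 against NC, 10022 in ACSS2-KO-3 against NC and 9745 in ACSS2-KO-3 against ACSS2-KO-2, and no call of a member changed. In ACSS2-KO-3 against NC the offsets, with or without the block, turned LPCAT3 to -0.04, GCLM to 0.49, SC5D to 0.25 and CISD2 to 0.57, and against ACSS2-KO-2 LPCAT3 to -0.04, GCLM to 0.42 and SC5D to 0.21. Among the pathway genes called in both fits, FADS1 (0.14, offsets -0.12) and AGPS (-0.51, offsets 0.31) also turned against NC, and AGPS (-0.56, offsets 0.31) and SEPHS2 (0.14, offsets -0.14) against ACSS2-KO-2. The cause was not tested. Signs also turned in values near 0 that were not called. In ACSS2-KO-2 against NC, ACSL4 stood at 0.02 with RLE and with DESeq2, 0.01 with no filter, 0.00 in the 2 groups alone and -0.04 to 0.07 with a library left out. FTL stood at 0.00 with RLE and DESeq2, 0.05 with the offsets, with or without the block, and -0.05 to 0.03 with a library left out. NCOA4 stood at 0.00 with the offsets, with or without the block, and with a library left out at -0.02 to 0.03, LPCAT3 at -0.08 to 0.04 and TFRC at -0.01 to 0.13. GCLC in ACSS2-KO-3 against NC stood at 0.00 in the 2 groups alone and -0.03 to 0.07 with a library left out. CISD2 also lost its call in ACSS2-KO-3 with DESeq2 (-0.20, adjusted p 0.069) and with no filter (-0.21, 0.0543). LPCAT3 had the lowest counts of the members, and the effect of depth on its call was not tested.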
